A study of Mus musculus with 2 samples.

Results

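The 10 genes described here are the haemoglobin (globin) genes and 3 genes of haem supply in red blood cells, taken from the 32285 genes of the count tables by their symbols. The adult alpha globins were Hba-a1 and Hba-a2, the adult beta globins were Hbb-bs and Hbb-bt, and the embryonic globins were Hbb-y, Hbb-bh1 and Hba-x. Alas2 makes the first precursor of haem in red cells, Fech puts the iron into it, and Slc25a37 (mitoferrin) carries iron into the mitochondrion. All 10 were measured by single-cell RNA-seq of whole spinal cord at postnatal day 4, in 1 library of SMA mice and 1 of control (Con) mice.

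The SMA mice were mSmn-/- and carried the human transgene as hSMN22tg/0, which is the severe form of the Taiwanese model of spinal muscular atrophy. The Con mice were mSmn+/- with the same hSMN22tg/0 transgene, so the controls also lacked 1 intact copy of Smn. Both groups were of the FVB strain, and cords of littermates were pooled into each library. With 1 library per group no spread between animals can be given, and every interval below is an exact 95% interval that covers counting error only.

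Haemoglobin is built from alpha and beta globin chains, each holding 1 haem, and red cells fill with it as they mature and lose their nucleus. Mice replace embryonic globins with adult ones before birth. A red cell keeps haem synthesis in step with globin synthesis, and Alas2 is its rate-limiting enzyme. When a whole tissue is dissociated, red cells and reticulocytes, the young red cells that still hold RNA, can enter the suspension together with the other cells.

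The globins lie in 2 clusters. On GRCm38, by GENCODE M21, Hba-x (chr11:32276400-32278116), Hba-a1 (chr11:32283511-32284465) and Hba-a2 (chr11:32296489-32297298) follow each other on the plus strand of chromosome 11. Hbb-y (chr7:103851749-103853216), Hbb-bh1 (chr7:103841637-103843164), Hbb-bs (chr7:103826534-103828096) and Hbb-bt (chr7:103812524-103813996) lie on the minus strand of chromosome 7, and Alas2 (chrX:150547375-150570638) lies on the X chromosome. Slc25a37 (chr14:69241848-69285112, minus strand) lies apart from both clusters, and all 10 genes are protein-coding.

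The sequences below are the 250 bases before the start site of the genes that the comparisons of adult with embryonic globins and of globins with Alas2 turn on, from RefSeq on GRCm38.p6, 5′ to 3′ on the gene's own strand. Capitals mark matches on either strand to 4 motifs. The GATA motif was spelled AGATAA. The CACCC box was spelled CCACACCC. The CCAAT box was spelled by its name, and the TATA-like motif was spelled ATAAA. In Alas2, matches to the first and the last of these overlap on the opposite strand. The windows are chr11:32283422-32283671, chr11:32276350-32276599, chr7:103827929-103828178, chr7:103813924-103814173, chr7:103853208-103853457 and chrX:150547167-150547416, in the order shown.
Hba-a1: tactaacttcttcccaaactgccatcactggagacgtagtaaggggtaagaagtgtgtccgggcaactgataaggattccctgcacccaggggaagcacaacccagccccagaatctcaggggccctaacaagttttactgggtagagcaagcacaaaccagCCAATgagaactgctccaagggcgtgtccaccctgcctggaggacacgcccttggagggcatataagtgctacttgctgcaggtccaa
Hba-x: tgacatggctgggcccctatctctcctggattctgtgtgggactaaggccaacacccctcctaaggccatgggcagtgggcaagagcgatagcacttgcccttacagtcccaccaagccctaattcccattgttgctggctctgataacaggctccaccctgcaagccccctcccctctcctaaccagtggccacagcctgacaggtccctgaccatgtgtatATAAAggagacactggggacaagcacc
Hbb-bs: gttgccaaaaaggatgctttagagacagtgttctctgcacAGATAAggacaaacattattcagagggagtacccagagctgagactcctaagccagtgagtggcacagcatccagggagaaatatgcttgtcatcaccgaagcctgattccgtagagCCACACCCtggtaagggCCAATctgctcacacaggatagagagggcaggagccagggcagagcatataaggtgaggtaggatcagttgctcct
Hbb-bt: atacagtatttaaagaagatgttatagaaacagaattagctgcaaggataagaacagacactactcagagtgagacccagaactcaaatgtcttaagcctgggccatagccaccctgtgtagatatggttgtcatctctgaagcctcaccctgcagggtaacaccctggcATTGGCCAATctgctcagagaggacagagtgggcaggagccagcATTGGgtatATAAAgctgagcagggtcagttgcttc
Hbb-y: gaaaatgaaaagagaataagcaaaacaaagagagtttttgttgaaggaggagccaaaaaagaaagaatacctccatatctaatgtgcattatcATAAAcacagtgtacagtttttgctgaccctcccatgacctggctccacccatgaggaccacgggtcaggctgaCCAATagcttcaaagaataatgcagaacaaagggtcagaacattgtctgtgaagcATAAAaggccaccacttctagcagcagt
Alas2: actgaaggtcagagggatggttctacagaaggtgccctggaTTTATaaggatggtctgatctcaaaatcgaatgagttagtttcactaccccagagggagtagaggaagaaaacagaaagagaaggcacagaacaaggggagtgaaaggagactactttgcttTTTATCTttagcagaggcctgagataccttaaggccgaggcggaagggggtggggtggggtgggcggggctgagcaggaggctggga

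Such matches are common. Of 32851 windows of this length, 9.99% held the GATA motif, 3.20% the CACCC box, 33.8% the CCAAT box and 37.3% the TATA-like motif. A CCAAT box stood within 100 bases of the start in Hba-a1 (-88), Hbb-bs (-76), Hbb-bt (-75) and Hbb-y (-83), while Hba-x and Alas2 held no match to it. Hbb-bs also held a GATA motif (-210) and a CACCC box (-93), and Hbb-bt, Hbb-y and Hba-x held a TATA-like motif at -27 or -28. A match is a description of these letters and not a bound site. The windows of Hba-a1 and Hba-a2 shared 247 bases, all identical. The other 6 of 253 aligned positions were unpaired bases at the window ends, since the windows start at slightly different places. Those of Hbb-bs and Hbb-bt were 70.5% identical. The last 200 bases of the transcripts, where this assay reads, were 84.7% identical between Hba-a1 and Hba-a2 and 79.3% between Hbb-bs and Hbb-bt. How shared reads were divided within a pair is therefore uncertain, and pairs are summed for the main comparisons. Hbb-bh1, Fech and Slc25a37 had no window in the table used here.

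A unique molecular identifier (UMI) stands for 1 captured RNA molecule. The SMA library held 26921 barcodes and 85872075 UMIs, and the Con library 25419 barcodes and 97894084 UMIs. There were 8163 barcodes listed in both libraries. Among them, 905 had over 50% globin UMIs in both libraries, and all of these but 1 had no more UMIs in SMA than in Con. Their medians were 1662 UMIs in SMA and 10309 in Con, and their summed globin UMIs in SMA were 16.1% of those in Con. SMA barcodes that were also listed for Con were left out of all values that follow unless stated. Smn1 stood at 52.8 and 52.7 non-globin CPM (UMIs per 1000000 UMIs outside the globins) in haemoglobin-low cells of SMA and Con, but the files do not say from which exons, so this does not check the genotype. In the same cells Xist, which is made from the inactive X of female cells, was at 1.52 and 634 non-globin CPM, and 4 Y-linked genes together at 168 and 77.3. The makeup by sex thus differed between the libraries, and sex and genotype cannot be told apart in any comparison below, including that of the X-linked Alas2.

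By globin share most cells held almost none and a small group held almost nothing else, with other cells in between. Over 80% globin there were 345 SMA and 799 Con cells. At 50 to 80% there were 89 and 223, and at 20 to 50% there were 42 and 172 cells of named classes. Cells with over 50% of their UMIs from the 7 globins are called haemoglobin-high. They were 434 of 6787 kept SMA cells (6.39%, 5.82 to 7.003%) and 1022 of 10256 kept Con cells (9.96%, 9.39 to 10.6%), a log2 ratio of -0.64. The haemoglobin-high cells held 93.3% of the globin UMIs of kept SMA cells and 93.1% of those of kept Con cells. This share ratio is not stable. It became -1.16 when shared SMA barcodes were kept and 0.78 when shared barcodes were left out of both libraries, which leaves only 137 of the 1022 Con cells. Those 137 cells had a median of 2665 UMIs, against 10515 in the other 885 Con cells and 9893.5 in SMA.

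**Figure D1:**
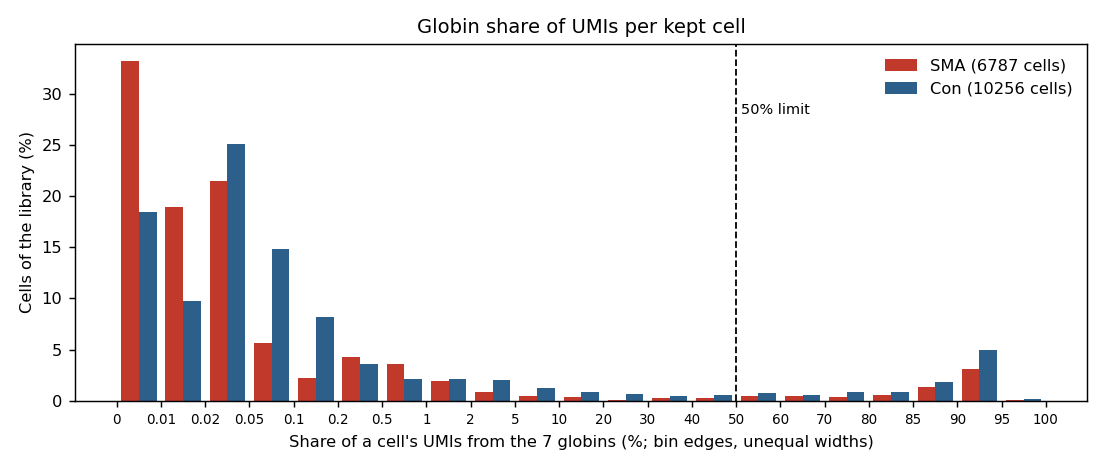
Share of a cell's UMIs from the 7 globins (horizontal axis, percent, bins of unequal width) against the percent of the library's kept cells in each bin, for 6787 SMA and 10256 Con cells. Most cells lie at the left, few lie between 20% and 80%, and a second group lies at 85% to 95%.

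The limit at 50% cut through few cells. There were 11 SMA and 26 Con cells at 45 to 50% globin UMIs and 13 and 37 at 50 to 55%. Median Alas2 was 10 UMIs on either side of the limit in SMA, and 8.5 just inside the haemoglobin-low side and 14 just above in Con. Above the limit, haemoglobin-high cells were alike in depth in the libraries. Their medians were 9893.5 and 9880.5 UMIs in SMA and Con, of which 883 and 865 lay outside the globins, with 365.5 and 365 genes detected. The lower limit of 200 genes removed a further 32 SMA and 180 Con barcodes of this kind, and the mitochondrial limit removed 27 and 45.

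Erythroid markers other than globins were concentrated in the same cells. The 11 erythroid markers measured summed to 8120 non-globin CPM in SMA and 11202 in Con in cells over 80% globin, against 202 and 217 in cells with at most 5%. Slc4a1, the anion exchanger band 3, was at 174 and 119 in haemoglobin-high cells and at 0.684 and 0.296 in haemoglobin-low cells. Markers of neural and immune cells were present too. In cells over 80% globin the 9 oligodendrocyte markers summed to 3700 and 6088 non-globin CPM with all 9 detected, the 10 astrocyte markers to 2234 and 2195 and the 9 microglia markers to 1479, with 1 at 0, and 1309. T, NK and B cell markers were at 6.35 in SMA, with 7 of 8 at 0, and all 8 were at 0 in Con. At 50 to 80% globin there were 89 SMA and 223 Con cells. Microglia markers summed to 4699 and 4150 in them, against 4796 and 4696 at up to 5% globin. Oligodendrocyte markers summed to 3116 and 3966 at 50 to 80%, astrocyte markers to 2300 and 2777 and erythroid markers to 1864 and 2027. These cells held medians of 3628 and 2506 UMIs outside the globins, against 809 and 806 in cells over 80%. They thus weigh more per cell in pooled non-globin CPM. What part the UMIs of neural and immune markers had in the values below was not tested.

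Adult globins took nearly the same share of the UMIs of haemoglobin-high cells in both libraries. They were at 848456 CPM (UMIs per 1000000 of all UMIs) in SMA and 848150 in Con, a log2 ratio of 0.00 (-0.00 to 0.00). Since at least 50% is fixed by how these cells were chosen, that sum is a description. UMI counts of 3′ ends are not divided by gene length, so CPM values of different genes can be set side by side as molecules captured. Hbb-bs, the major beta chain here, led with 468464 CPM in SMA and 463701 in Con. Hba-a1 followed with 296406 and 286469 CPM, and Hbb-bt with 75459 and 89576 CPM. Hba-a2 was far lower, at 8127 and 8404 CPM, with the reservation on shared reads given above. The order of these 4 genes was the same in SMA and Con, and every haemoglobin-high cell held at least 1 UMI of each.

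Alpha chains made up 35.9% (35.8 to 35.9%) of adult globin UMIs in SMA and 34.8% (34.7 to 34.8%) in Con, a difference of 1.13 percentage points. The middle 90% of cells ran from 31.3 to 43.5% in SMA and from 30.6 to 47.6% in Con, and these ranges overlapped. The share within the beta pair differed more. Hbb-bt was 13.9% (13.8 to 13.9%) of adult beta UMIs in SMA and 16.2% (16.2 to 16.2%) in Con. Its median over cells was 13.2% and 15.5%, and its level was lower in SMA by a log2 ratio of -0.25 (-0.25 to -0.24), against 0.01 for Hbb-bs, 0.05 for Hba-a1 and -0.05 for Hba-a2.

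Both balances moved with depth. In haemoglobin-high cells under 5000 UMIs, Hbb-bt was 7.04% of beta UMIs in SMA (54 cells) and 7.86% in Con (160 cells). In cells with at least 5000 UMIs it was 14.1% (380 cells) and 16.5% (862 cells), with a gap between libraries close to that over all cells. Spearman's rho between a cell's total UMIs and its Hbb-bt share was 0.63 over 434 SMA cells and 0.69 over 1022 Con cells. Alpha chains went the other way, with 39.996% and 42.1% in the shallow cells and 35.7% and 34.4% in the deep ones. Total UMIs are mostly globin UMIs in these cells, so the axes share their counts, and cells of 1 library are not replicates. The 137 Con cells whose barcodes were not shared lay with the shallow cells, at 43.2% alpha and 7.83% Hbb-bt. Leaving shared barcodes out of both libraries therefore turned the alpha difference to -7.30 percentage points.

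**Figure D2:**
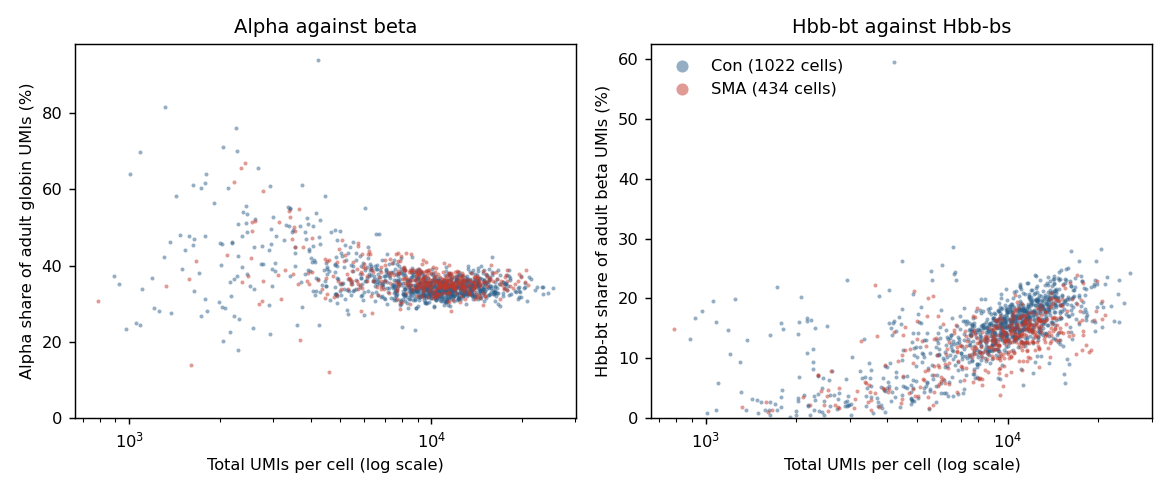
Alpha share of adult globin UMIs (left) and Hbb-bt share of adult beta UMIs (right), in percent, against total UMIs per cell on a log axis, with 1 point per haemoglobin-high cell (434 SMA, 1022 Con). Alpha shares scatter widely under 5000 UMIs and narrow around 35% above it, while Hbb-bt shares climb with depth and SMA cells lie lower than Con cells at the right.

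Embryonic globins were all but absent. Hbb-bh1, an embryonic beta-like chain, had 0 UMIs in every barcode of both libraries, and in haemoglobin-high cells 0 counts allow up to 0.708 CPM in SMA and 0.302 CPM in Con. Hbb-y, the main embryonic beta-like chain, had 1 UMI in SMA and 4 UMIs in 4 Con cells. Hba-x, the embryonic zeta chain, had 1 UMI in SMA and 62 in Con, and 60 of those 62 came from 1 Con cell. That cell also held 3464 Hba-a1 and 5776 Hbb-bs UMIs, so its embryonic chain stood beside a full set of adult ones. Its barcode was also listed in the SMA library, with 5 Hba-x UMIs, and was left out there. Embryonic chains were 0.556 (0.0673 to 2.01) per 1000000 globin UMIs in SMA and 7.84 (6.06 to 9.97) in Con, and without that 1 cell Con stood at 0.713. The log2 ratio went from -3.82 to -0.36 (-3.70 to 2.12) without it, which gives no direction. In haemoglobin-low cells no embryonic UMI was found in SMA, and Con had 13 of Hba-x in 6 cells and 1 of Hbb-y.

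The 3 haem genes marked the same cells as the globins. On the scale of non-globin CPM, which keeps the globins themselves from diluting other genes, Alas2 was at 7077 (6873 to 7286) in SMA and 10830 (10664 to 10997) in Con in haemoglobin-high cells. It had at least 1 UMI in 96.8% and 95.01% of these cells, with medians of 10 and 16 UMIs, and in 1.06% and 3.32% of haemoglobin-low cells, whose median depths were 6006 and 6152 UMIs. Fech was at 1656 and 2643 non-globin CPM with medians of 2 and 3 UMIs, and Slc25a37 at 539 and 632 with a median of 0 in both. In haemoglobin-low cells the same genes were at 6.50 and 20.6, 24.1 and 29.1, and 12.5 and 11.9 non-globin CPM. All 3 were over 2-fold higher in haemoglobin-high cells in both libraries, a call reached by 1.2% of 12865 genes. The log2 difference was 10.09 and 9.04 for Alas2, 6.10 and 6.50 for Fech and 5.43 and 5.74 for Slc25a37 in SMA and Con.

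Alas2 and the other 2 genes differed in how they followed the globin share. Cells were divided by the percent of their UMIs from globins into 6 ranges. RNA that comes with globin rises over these ranges on the non-globin scale by the division itself, so the rise is a description. Alas2 went from 0.236 non-globin CPM in SMA and 0.776 in Con at up to 0.5% globin to 12134 and 18867 at over 80%. From 0.5 to 5% globin it was already at 5.14 and 18.0, and from 5 to 20% at 139 and 112. Per 10000 globin UMIs Alas2 showed no steady climb. From the lowest to the highest range it was 6.47, 4.57, 12.4, 11.2, 12.9 and 12.6 in SMA. In Con it was 17.3, 11.2, 9.92, 16.9, 19.5 and 19.4. Fech instead stayed near 23 non-globin CPM in SMA and 25 to 29 in Con up to 5% globin, and left that level only in cells richer in globin, with 2694 and 4605 at over 80%. Fech serves haem synthesis in every cell type, and its level in oligodendrocyte-like cells was 46.2 and 64.9, in 60 and 43 cells, against 24.1 and 29.1 over all haemoglobin-low cells. Slc25a37 behaved like Fech, from 11.5 and 10.5 non-globin CPM in the lowest range to 866 and 1016 in the highest, and its haemoglobin-low level was highest in microglia-like cells among classes with at least 50 cells per library (21.1 and 19.8).

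**Figure D3:**
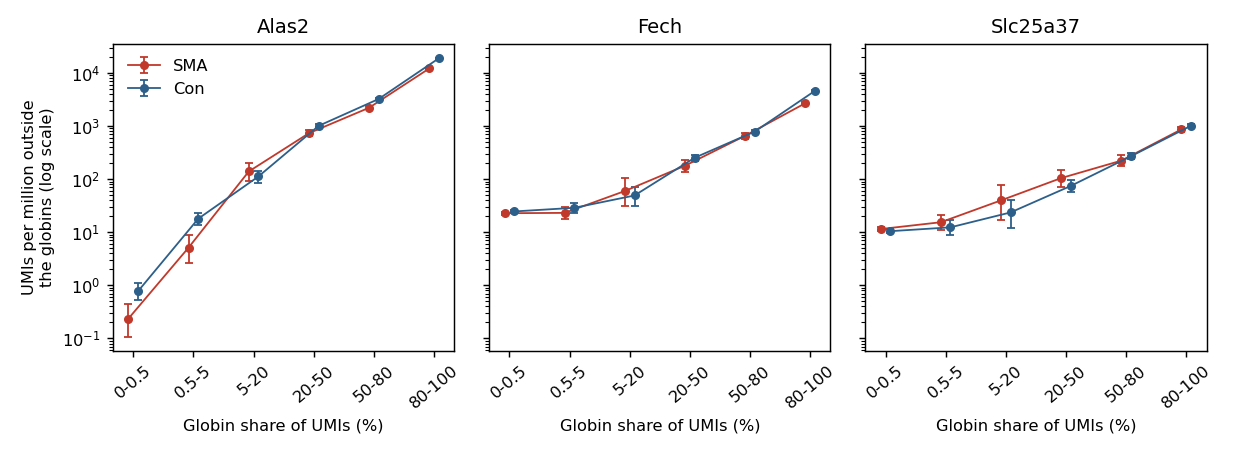
Non-globin CPM (log axis) of Alas2, Fech and Slc25a37 in 6 ranges of the globin share of a cell's UMIs (percent), for SMA and Con; bars are exact 95% Poisson intervals, for counting error only. Alas2 is higher in each range than in the one before, from below 1 to above 10000, whereas Fech and Slc25a37 are nearly level up to 5% globin and higher in each range after it. For RNA that comes with globin, a rise is set by the division into ranges.

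In haemoglobin-high cells Alas2 was lower in SMA by a log2 ratio of -0.61 (-0.66 to -0.57) and Fech by -0.67 (-0.77 to -0.58). Slc25a37 differed less, at -0.23 (-0.41 to -0.05). None of the 3 passed a log2 ratio of -1, which 1.7% of the 2474 genes compared did, while 0.728% passed 1 in the other direction. The median gene stood at -0.06, and 163 of the 2474 genes had a lower ratio than Alas2, 123 a lower one than Fech and 772 a lower one than Slc25a37. With globin in place of other RNA as the measure, Alas2 was at 12.6 (12.3 to 13.01) UMIs per 10000 globin UMIs in SMA and 19.4 (19.1 to 19.7) in Con.

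This gap was present in shallow and deep cells alike. When the cells of each library were divided into 4 groups of like size by UMIs outside the globins, Alas2 was lower in SMA in each group, at 12613, 12887, 11346 and 3671, against 19324, 21590, 17412 and 5575 non-globin CPM in Con. Fech was lower in each group too, from 1021 to 2862 in SMA and from 1471 to 5134 in Con. In cells with at least 5000 UMIs the log2 ratio of Alas2 was -0.63, and in cells over 80% globin -0.64. Mitochondrial UMIs had a median share of 2.56% in SMA and 1.92% in Con haemoglobin-high cells, and their part in the gap was not tested. The ratio turned to 0.71 when shared barcodes were left out of both libraries. The 137 Con cells then left, which are shallow as said, had 4334 non-globin CPM of Alas2 and 12.3 per 10000 globin UMIs, against 11218 and 19.7 in the 885 shared ones. Fech turned in the same way, with 860 non-globin CPM in these 137 Con cells against 1656 in SMA and 2749 in the shared Con cells.

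**Figure D4:**
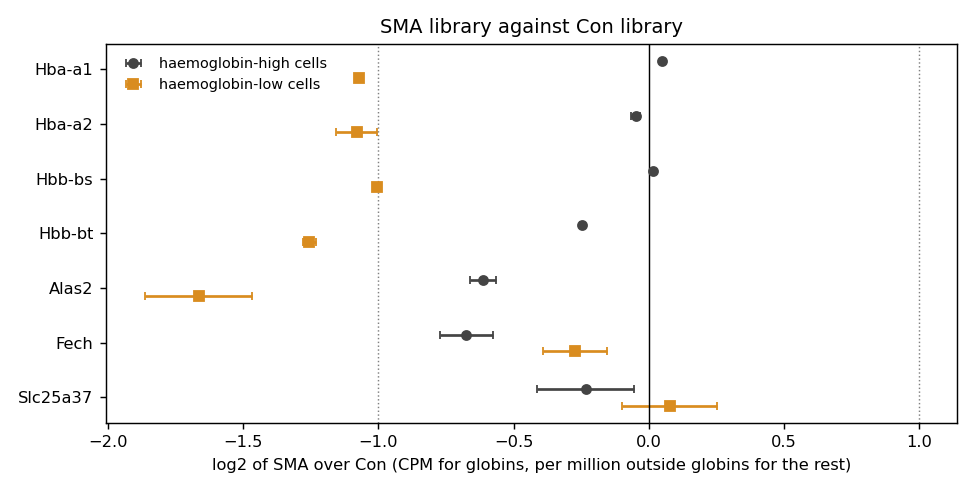
log2 ratio of SMA over Con (horizontal axis) for the 7 members with enough UMIs, in haemoglobin-high cells (circles) and haemoglobin-low cells (squares), in CPM for globins and non-globin CPM for the haem genes; bars are exact 95% intervals for counting error only and dotted lines mark -1 and 1. In haemoglobin-high cells the globins lie at -0.25 to 0.05 and Alas2 and Fech near -0.6, and in haemoglobin-low cells the globins lie at -1.26 to -1.01 and Alas2 at -1.66.

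Most other genes of the haem pathway did not share this pattern. Of 10 further genes of haem synthesis, all compared, 2 were over 2-fold higher in haemoglobin-high cells of both libraries and none was lower, where 1.2% and 7.08% of all genes were. Urod, which acts between Alas2 and Fech, was among them, at 229 and 262 non-globin CPM against 49.1 and 50.8 in haemoglobin-low cells. Alad, the second enzyme, was at 190 and 165 against 103 and 146 in haemoglobin-low cells. Tmem14c, a carrier of a haem precursor, was at 219 and 192 against 257 and 274. The median log2 difference of the list was 0.37 in SMA and 0.10 in Con, and the median over all genes was -0.59 in both. In haemoglobin-high cells SMA over Con was 0.20 for Alad and -0.19 for Urod, and both intervals included 0.

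Of 8 genes of haem export and breakdown, 2 were higher in haemoglobin-high cells, again beside 1.2% of all genes. Blvrb, a biliverdin reductase, was at 965 and 1365 non-globin CPM against 79.5 and 85.9, and Slc48a1, a haem transporter, at 305 and 397 against 66.4 and 78.2. Hmox1, the inducible haem oxygenase that breaks haem open, was at 66.9 and 41.1 against 80.5 and 106, and in haemoglobin-high cells its log2 ratio of SMA over Con was 0.71 (0.11 to 1.29) on 43 and 62 UMIs. Hmox2 was at 52.9 and 63.0 against 70.1 and 79.4. Of 8 genes of iron uptake and use, 2 were higher too, beside the same 1.2%, and both serve iron-sulphur clusters: Glrx5 (747 and 903 against 208 and 189) and Iscu (364 and 371 against 166 and 146). Tfrc, the transferrin receptor through which red-cell precursors take up iron, was not among them, with 12 and 54 UMIs in all haemoglobin-high cells (18.7 and 35.8 non-globin CPM). Slc25a28, the second mitoferrin, had 7 and 31 UMIs there.

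Most of the compared red-cell genes outside haem were higher in the same cells as the globins. This held for 4 of the 5 erythroid markers with enough UMIs to be compared. Of 6 compared genes of red-cell redox and metabolism, 5 were higher in haemoglobin-high cells, among them Gpx1 (10508 and 11446 non-globin CPM) and Prdx2 (7115 and 9612), which remove peroxides, and Bpgm (3977 and 5712), which makes the regulator of oxygen release. Ahsp, the alpha globin chaperone, was not analysed here. Of 6 compared membrane genes 5 were higher, and of 9 compared genes of reticulocyte maturation 7 were, among them Mkrn1 (6607 and 7956), Bnip3l (2732 and 2980), which clears mitochondria, and Ube2l6 (1521 and 2002). Of 7 compared globin regulators 0 reached that call, which is close to the 1.2% of all genes. The other 3 had too few UMIs to be compared, and their log2 differences lay above 1 in both libraries. Klf1, a factor with a part in adult beta globin expression, was at 5.17 and 4.81, on 6 and 16 UMIs in all haemoglobin-high cells. Gata1 was at 5.55 and 2.77 on 5 and 7 UMIs, and Nfe2 at 3.92 and 1.86 on 2 and 5 UMIs. Of 10 cycling genes 1 was higher, Ube2c (1454 and 1608 against 188 and 131), and Birc5, Rrm2 and Pcna were not.

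Of the genes of these lists with at least 100 UMIs, summed over both libraries, none passed a log2 ratio of 1 or -1 between SMA and Con in haemoglobin-high cells, where 0.728% and 1.7% of all genes did. Many list genes were too sparse there to be compared, and some of those lay past the fold. The medians were -0.30 over 8 genes of reticulocyte maturation, -0.24 over 5 of redox and metabolism and 0.49 over 5 membrane genes, beside -0.06 over all genes. The lists thus lay on both sides of the median. Bpgm was at -0.52 (-0.59 to -0.46), Blvrb at -0.50 (-0.63 to -0.37), Prdx2 at -0.43 (-0.48 to -0.39) and Ube2l6 at -0.40 (-0.50 to -0.29), all in the direction of Alas2. Slc4a1 was at 0.55 (0.19 to 0.89) and Epb41, which ties the red-cell skeleton to the membrane, at 0.27 (0.05 to 0.49), both in the other direction.

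Globin UMIs outside the haemoglobin-high cells are the values behind globin comparisons in neural cells. Haemoglobin-low cells, with at most 50% globin UMIs and a named class, were 6307 in SMA and 7416 in Con. Adult globins stood at 6233 CPM (6209 to 6257) in SMA and 12917 CPM (12884 to 12949) in Con, a log2 ratio of -1.05 (-1.06 to -1.04). It was -0.61 with shared SMA barcodes kept and -1.58 with shared barcodes left out of both libraries. All 4 adult globins were lower by a like amount, with -1.07 for Hba-a1, -1.08 for Hba-a2, -1.01 for Hbb-bs and -1.26 for Hbb-bt. Among the 14332 genes compared, with the globins left out, 1.65% passed -1 and 1.79% passed 1. Alas2 passed -1, at -1.66 (-1.87 to -1.47). Fech was at -0.27 (-0.39 to -0.15), and Slc25a37 at 0.08 (-0.10 to 0.25) did not differ beyond counting error. No gene of the other lists with enough UMIs to be compared passed the fold in either direction in these cells, and some of the sparser ones lay past it.

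Very few cells made this level. The median haemoglobin-low cell held 1 globin UMI in SMA and 3 in Con, and 32.2% and 11.4% of cells held none. The top 5% of cells, 315 in SMA and 370 in Con, held 92.0% and 90.1% of the globin UMIs, and 18 and 44 cells held 50%. Cells with over 10% globin UMIs were 66 in SMA (1.05%, 0.810 to 1.33%) and 258 in Con (3.48%, 3.07 to 3.92%). Without them the level was 1231 CPM in SMA and 2071 CPM in Con, a log2 ratio of -0.75. Cells rich in globin were thus fewer in SMA, and the level in the other cells was lower.

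The cells in between held many UMIs of both kinds. The 42 SMA and 172 Con cells at 20 to 50% globin held medians of 6812 and 3886 UMIs outside the globins, against 809 and 806 in cells over 80%. Alas2 was at 733 and 1006 non-globin CPM in them and was detected in 88.1% and 67.4%. Markers of other classes were present there at levels that differed by class. Microglia markers summed to 6009 and 3912 non-globin CPM, against 4796 and 4696 in cells with at most 5% globin, and astrocyte markers to 2013 and 3579 against 3192 and 3242. Macrophage markers summed to 591 and 850 against 144 and 180, and fibroblast markers to 20.3 and 1301 against 838 and 881. How many of these were doublets was not tested, and doublets were treated only by the upper limit of 4000 genes. Their alpha share was 35.7% and 36.5%, and that of the cells with at most 0.5% globin 39.6% and 36.8%, so over all 6 ranges it stayed between 34.6% and 41.7%. Alas2 per 10000 globin UMIs over all haemoglobin-low cells was 10.4 (9.16 to 11.7) in SMA and 15.8 (14.8 to 16.8) in Con, in the same order as in haemoglobin-high cells.

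Across cell classes the adult globin level was lower in SMA in 9 of the 10 classes with at least 50 cells per library, and each of these 9 intervals lay below 0. Classes carry "-like" because they were named from markers. The ratios ran from -5.59 in fibroblast-like (61 and 167 cells) and -5.13 in Schwann-like cells (93 and 210 cells) to -0.16 in microglia-like cells (1201 and 1121 cells). Fibroblast-like cells stood at 460 CPM in SMA and 22097 CPM in Con, and 7 Con cells over 10% globin held 91.0% of the latter, while no SMA cell was over 10%. Schwann-like cells stood at 405 and 14191 CPM, again with 0 and 7 cells over 10%. Mural-like cells were the class that was higher in SMA, at 0.83, and 1 SMA cell held 84.4% of their globin UMIs. The largest ratios were thus those of small classes in which a handful of cells decided the Con value.

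The 3 classes with most cells differed among themselves too. Astrocyte-like cells stood at 3307 and 11359 CPM, OPC-like cells (oligodendrocyte precursors) at 6091 and 10719, and microglia-like cells at 8915 and 9968. Among microglia-like cells Hbb-bs was slightly higher in SMA, at 0.04 (0.02 to 0.06), and Hba-a1 lower, at -0.46. A cluster of shallow oligodendrocyte-like cells, with medians of 2179 and 1553 UMIs per cell, had the highest levels of the 10 classes, 17561 and 57856 CPM, and its median cell held 1 and 27 globin UMIs. The medians over all kept cells were 6109 and 5637.5 UMIs, and without it the overall log2 ratio was -0.98. Neuron-like cells, 41 and 25, were too few for a comparison. Their levels were 512 and 9807 CPM, and 1 Con cell held 89.2% of the Con globin UMIs. Of the other classes too small to compare, macrophage-like cells (38 and 65) stood at 25660 and 65684 CPM. Oligodendrocyte-like cells (60 and 43) stood at 5085 and 1371 CPM, the former with 90.6% of its globin UMIs in 1 cell.

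Without cells over 10% globin, 9 of the same 10 classes were still lower in SMA, from -2.19 in fibroblast-like cells to -0.02 in committed oligodendrocyte precursor-like (COP-like) and endothelial-like cells, and 7 intervals lay below 0. The medians per class were 1 to 2 globin UMIs per cell in all 14 SMA classes. In Con they were 0 to 5 outside the shallow oligodendrocyte-like cluster. No class was free of globin UMIs, so none could serve as a background, and whether these UMIs came from the cells or from free RNA was not tested.

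**Figure D5:**
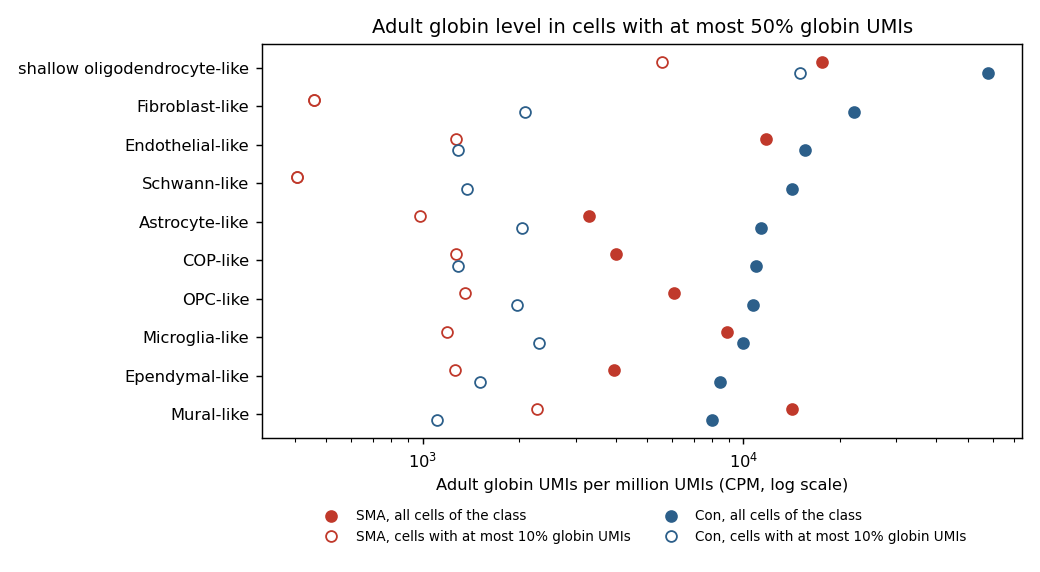
Adult globin CPM (log axis) in the 10 classes with at least 50 cells per library, for SMA (red) and Con (blue); filled circles are all haemoglobin-low cells of a class and open circles those with at most 10% globin UMIs. Filled circles lie left of their Con partner in 9 classes and to its right in mural-like cells, and open circles run from 405 CPM in SMA Schwann-like cells to 15067 CPM in Con shallow oligodendrocyte-like cells.

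The genes most like the adult globins over classes were sought as the highest Pearson r of log2 levels over 22 points, 11 classes in 2 libraries, among 14189 genes. Alas2 had an r of 0.98, Fech of 0.90 and Slc25a37 of 0.87. The nearest genes outside the 10 members were mt-Nd1, mt-Nd2, Mkrn1, Isg20, Hbq1a, mt-Co3, mt-Co2, Fam220a and Slc25a39, with r from 0.92 down to 0.89. Points of 1 library share its depth, and the haemoglobin-high cells set most of the range. Over the 20 points of haemoglobin-low classes alone, Alas2 kept an r of 0.94, Fech had 0.61 and Slc25a37 0.43, and the nearest other gene, Atg4c, had 0.72, followed by Rbm10, Dapk3, Otub2, Vps53, 1110002L01Rik, Ints9, Tceanc, Mrrf and mt-Co3 with 0.70 to 0.66. Of these genes only mt-Co3 was among the nearest in both sets of points. Hbq1a, a theta globin, and its copy Hbq1b had 171 and 393 and 67 and 194 UMIs in haemoglobin-high cells of SMA and Con, more than the 3 embryonic globins together.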

How the data were processed

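Whole spinal cords had been dissociated with trypsin and collagenase and sequenced as 10x Genomics 3′ libraries, 1 of SMA and 1 of Con mice, and groups were taken from the sample titles. The deposited values are raw UMI counts of genes in barcodes. The authors ran Cell Ranger (4.0.0 in the file headers, another version in the study's methods) with mm10, per the submitters' notes, which also name Seurat 3.2.2. They carry no normalization. Depth was 85872075 and 97894084 UMIs, which limits rare genes to the 3-count bounds given.

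The authors' limits were applied: 200 to 4000 genes and under 10% mitochondrial UMIs, the upper gene limit being the only treatment of doublets. The 1 cluster with a median ribosomal share over 30% (1336 Con cells) was left out, as were 46 SMA and 482 Con cells that stayed unnamed. Haemoglobin-high cells had over 50% globin UMIs. The others were scaled to 10000 UMIs outside the globins, reduced from 2000 variable genes to 30 components, joined to 20 neighbours and clustered by the Leiden method (leidenalg 0.10.2, resolution 1), with the members and listed genes kept out. Each cluster was named from marker lists, needing 3 detected markers.

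UMIs were summed per library and class. Intervals are Clopper-Pearson for shares, exact Poisson for levels and exact conditional binomial for ratios (SciPy 1.17.1). Between genes, a log2 ratio over 1 or under -1 on at least 100 UMIs, with 0.5 UMI added, was called. With 1 library per group no p-value was computed. No result from simulated data is reported or relied on here. Named genes are the 10 members, up to 4 genes per list with most UMIs in haemoglobin-high cells and the 10 most alike genes. Some genes that meet this rule are not reported here. Genes named beyond this rule are the red-cell and sex-linked genes used as checks, Hbq1b, and Gata1 and Nfe2, which were chosen after their values were seen. Members and lists were chosen with earlier results of these data known. Alternatives covered shared barcodes, both limits, depth, weighting, scaling and clustering resolution. Positions are from GENCODE M21 (GRCm38), which matched 32158 of 32285 identifiers.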

Additional observations from a re-analysis of the deposited data

Results flagged for a closer look

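Mural-like cells went against the other classes. Their adult globin level was 14164 CPM in SMA (88 cells) and 7973 CPM in Con (249 cells), a log2 ratio of 0.83 (0.79 to 0.87), where the 9 other classes compared were lower in SMA. The difference between classes was not tested. In SMA 1 cell held 84.4% of the globin UMIs of the class, and without it the level was 2280 CPM and the ratio -1.81. Among cells with at most 10% globin UMIs, which leaves out 1 SMA and 4 Con cells, the ratio was 1.04.

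Embryonic chains were found outside the cells compared. SMA barcodes removed by the limits held 62 UMIs of Hba-x (2.35 CPM of 26345162 UMIs) and 9 UMIs of Hbb-y (0.342 CPM), against 47 (1.26 CPM) and 1 (0.0267 CPM) in the removed Con barcodes. Most were in 1 SMA barcode, with 54 UMIs of Hba-x and 8 of Hbb-y but 4 of Hba-a1 and 0 of Hbb-bs among 815 UMIs, 25.03% of them mitochondrial. It was not shared between the libraries. The largest such Con barcode held 30 Hba-x UMIs beside 34 of Hba-a1 and 43 of Hbb-bs.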

How the results depend on the processing

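No paired analysis was possible because each group had 1 library. The log2 ratio of the share of haemoglobin-high cells kept its sign in 6 of 7 alternatives. It was -1.16 with shared SMA barcodes kept, -0.90 over all deposited barcodes without limits, -0.91 in cells with at least 5000 UMIs and reversed to 0.78 with shared barcodes left out of both libraries. The ratio of Alas2 kept its sign in 9 of 10, with -0.71 with shared SMA barcodes kept, -0.55 centred on the median gene and 0.71 with shared barcodes left out of both. Alpha shares in haemoglobin-high cells under 5000 UMIs were 39.996% in SMA and 42.1% in Con, the reverse of the main direction. At 50 to 80% globin they were nearly equal, at 35.7% and 35.6%. Neither set was among the alternatives, in which the alpha difference kept its sign in 7 of 8. It was 0.86 percentage points with shared SMA barcodes kept, 1.22 under a mitochondrial limit of 20%, 1.05 and 1.32 under haemoglobin limits of 30% and 80%, 1.06 without limits, 1.31 in cells with at least 5000 UMIs, 0.66 with each cell weighted equally and -7.30 with shared barcodes left out of both. The embryonic ratio was negative in all 8, but without the Con cell with most embryonic UMIs, an alternative chosen after seeing the data, it was -0.36 with an interval of -3.70 to 2.12 and so has no clear sign. With shared barcodes left out of both, Con is at 0 embryonic UMIs and SMA at 2, and no ratio is given.

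The globin ratio in haemoglobin-low cells kept its sign in all 13. It was -0.61 with shared SMA barcodes kept, -1.58 with shared barcodes left out of both, -0.98 under a mitochondrial limit of 20%, -1.36 and -0.96 under haemoglobin limits of 30% and 80%, -1.02 in cells with at least 1000 UMIs outside the globins, -0.75 in cells with at most 10% globin UMIs, -1.11 at resolution 2, -1.50 with each cell weighted equally, -1.06 on the scale of non-globin CPM and -1.07 centred on the median gene. Chosen after seeing the data, it was -0.98 without the shallow oligodendrocyte-like cells and -0.99 with unnamed and high-ribosome cells. The cause of these shifts was not tested. Leaving shared barcodes out of both libraries leaves 137 shallow Con haemoglobin-high cells, which are not part of the haemoglobin-low ratio. Intervals cover counting error only, and differences between animals cannot be seen with 1 library per group.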
